A study of Homo sapiens with 6 samples.

Results

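The genes of the interferon response and of antigen presentation to T cells were examined in A2780, a human ovarian cancer cell line, after knockdown of BMI1 or of FAL-1. They were chosen by symbol: 49 symbols were listed, of which DDX58 is an older name of RIGI, which leaves 48 genes. Of these, 46 had a probe set annotated to that symbol alone and were measured, out of 18418 genes in all, while STAT2 and HLA-E are not analysed here. Where several probe sets read a gene, the brightest on average was used.

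The series holds 6 arrays, each from A2780 cells infected with lentivirus. BMI1 knockdown cells received BMI1 shRNA1 or BMI1 shRNA2 (hairpins 1 and 2, 1 array each), and their control, BMI1 Ctrl, has 1 array. FAL-1 knockdown cells received FAL-1 shRNA1 or FAL-1 shRNA2, and their control, FAL-1 Ctrl, has 1 array too. All cells, controls included, carried virus, grew in RPMI1640 with 10% fetal bovine serum and were taken 96 hours after infection. A short hairpin RNA (shRNA) lowers the transcript it matches. BMI1 belongs to a Polycomb complex that represses genes through chromatin, and FAL-1 is a long non-coding RNA. No uninfected cells are among the samples, separate cultures are not described, and all arrays come from a single cell line. The p-values therefore rest only on the spread between the 2 hairpins of each target. That spread can hold differences between the hairpins as well as technical ones, and no level without virus can be given.

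Interferons are secreted proteins that warn cells of infection. Inside the cell, sensors of foreign RNA or DNA switch on interferon genes. Secreted interferon then acts through its receptors to turn on a large set of antiviral genes, through a complex in which STAT2 and IRF9 take part. That complex binds the interferon-stimulated response element in promoters. The same signals raise the machinery that cuts proteins into peptides, carries the peptides into the endoplasmic reticulum and shows them at the cell surface on MHC class I molecules, where T cells can inspect them. Tumour cells often lower this machinery.

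Promoters are shown first for 3 of the 4 members whose smallest change over the 4 hairpins was largest, because their windows hold letters of the response elements of the pathway. Windows of 300 bases around RefSeq starts, 250 before and 50 after, were searched on both strands for the core of the interferon-stimulated response element, which is GAAA, any 2 bases and GAAA, and for TTCNNNGAA, the core of the gamma-activated site. The first was found for 27 of the 37 members with a window (73.0%), against 4.38% of 27305 genes, and in 3.57% of all 35116 windows. The second was found for 11 members (29.7%), against 9.38% of genes and 7.66% of windows. Hits of the first motif overlapped each other in 7 members, and hits of both motifs overlapped in 4. A match is a description of letters and does not show that a factor binds there. The windows of TRIM21 (chr11:4393653-4393952, minus strand), TAP1 (chr6:32853655-32853954, minus strand) and IFI35 (chr17:43006534-43006833, plus strand) are printed 5′ to 3′ from RefSeq on GRCh38.p14. Capitals mark the first motif in TRIM21 and TAP1 and the second in IFI35.
TRIM21: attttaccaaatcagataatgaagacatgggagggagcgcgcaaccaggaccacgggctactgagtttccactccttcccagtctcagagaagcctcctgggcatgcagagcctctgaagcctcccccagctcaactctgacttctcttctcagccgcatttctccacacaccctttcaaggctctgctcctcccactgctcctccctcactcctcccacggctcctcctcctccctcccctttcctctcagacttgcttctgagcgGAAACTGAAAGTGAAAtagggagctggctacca
TAP1: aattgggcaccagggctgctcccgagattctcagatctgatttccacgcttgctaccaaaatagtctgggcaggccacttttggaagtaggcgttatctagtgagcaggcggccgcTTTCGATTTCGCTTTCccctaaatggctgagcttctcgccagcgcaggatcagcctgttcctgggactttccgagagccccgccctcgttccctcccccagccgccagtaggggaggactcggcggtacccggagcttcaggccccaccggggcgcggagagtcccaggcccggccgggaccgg
IFI35: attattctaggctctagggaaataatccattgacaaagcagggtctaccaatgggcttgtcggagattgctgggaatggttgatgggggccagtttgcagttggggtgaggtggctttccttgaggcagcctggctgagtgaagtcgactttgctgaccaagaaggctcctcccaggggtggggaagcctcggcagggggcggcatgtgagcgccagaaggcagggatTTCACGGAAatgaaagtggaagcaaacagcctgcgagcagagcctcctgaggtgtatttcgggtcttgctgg
In TRIM21 the capitals are 2 overlapping hits, which begin 17 and 23 bases after the annotated start. In TAP1 they are 2 overlapping hits on the other strand, which begin 134 and 128 bases before the start shown. TAP1 has another annotated start, whose window holds only the second motif. The hit in IFI35 begins 22 bases before the start. The window of RIGI, which also stood above the control with all hairpins, held neither motif in these letters. The 27 members with the first motif had median log2 changes of 0.05 for BMI1 and 0.10 for FAL-1, while the 10 whose windows lack it had 0.11 and 0.16.

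Values are log2 probe set summaries, and a change is the value of a hairpin array minus that of its own control, so that 1 means a doubling. Array medians lay between 6.94 and 7.09. Across probe sets, the correlation between arrays was 0.985 to 0.995 within a target and 0.973 to 0.987 between targets. BMI1 itself read 8.73 and 9.99 with BMI1 hairpins 1 and 2, against 10.64 in the BMI1 control, which is 26.8% and 64.0% of the control. FAL-1 was not measured here, so its knockdown was not checked. FAL-1 hairpin 2 was the array furthest from its control: 2064 genes differed by at least 1.5-fold, against 463 for FAL-1 hairpin 1, 922 for BMI1 hairpin 1 and 1072 for BMI1 hairpin 2. No detection calls were used, and a level is not compared between genes, because probe sets differ in how brightly they read.

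With BMI1 knockdown about as many interferon and antigen presentation genes lay above the control as below it. With BMI1 hairpin 1, 23 of the 46 members lay above the control, beside 48.1% of all genes, and with hairpin 2, 25 did, beside 54.1%. Both hairpins were above the control for 17 members (37.0%), where the share over all genes was 32.9%, and both below for 15 (32.6%), where it was 30.7%. The median change over the members was 0.06, beside 0.01 over all genes. The median size of the change, without its sign, was 0.07 over members and 0.12 over all genes with hairpin 1, and 0.21 and 0.15 with hairpin 2. In 4 of 6 antigen presentation genes and 2 of 3 genes of the PARP group both values were above the control, and in all 4 IFIT and all 3 IFITM genes both were below it. The direction of the members' median differed with signal. The 17 members at or above the mean value of the median gene had a median change of -0.18, where all such genes had -0.04. The 29 dimmer members had 0.08, and the median over all dimmer genes was not computed.

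With FAL-1 knockdown more members lay above the control. For 25 of 46 members both values were above it (54.3%), beside 37.2% of all genes, and for 9 both were below (19.6%), beside 27.7%. The median change was 0.11, against 0.03 over all genes. Most of it came with FAL-1 hairpin 2, where the median was 0.19 and 34 members were above the control (58.0% of all genes were), against 0.04 and 28 members with hairpin 1 (51.5% of all genes). Among the higher members were the transcription factors IRF1, IRF7 and IRF9, 3 IFIT genes, RIGI, and 5 of 6 antigen presentation genes.

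**Figure D1:**
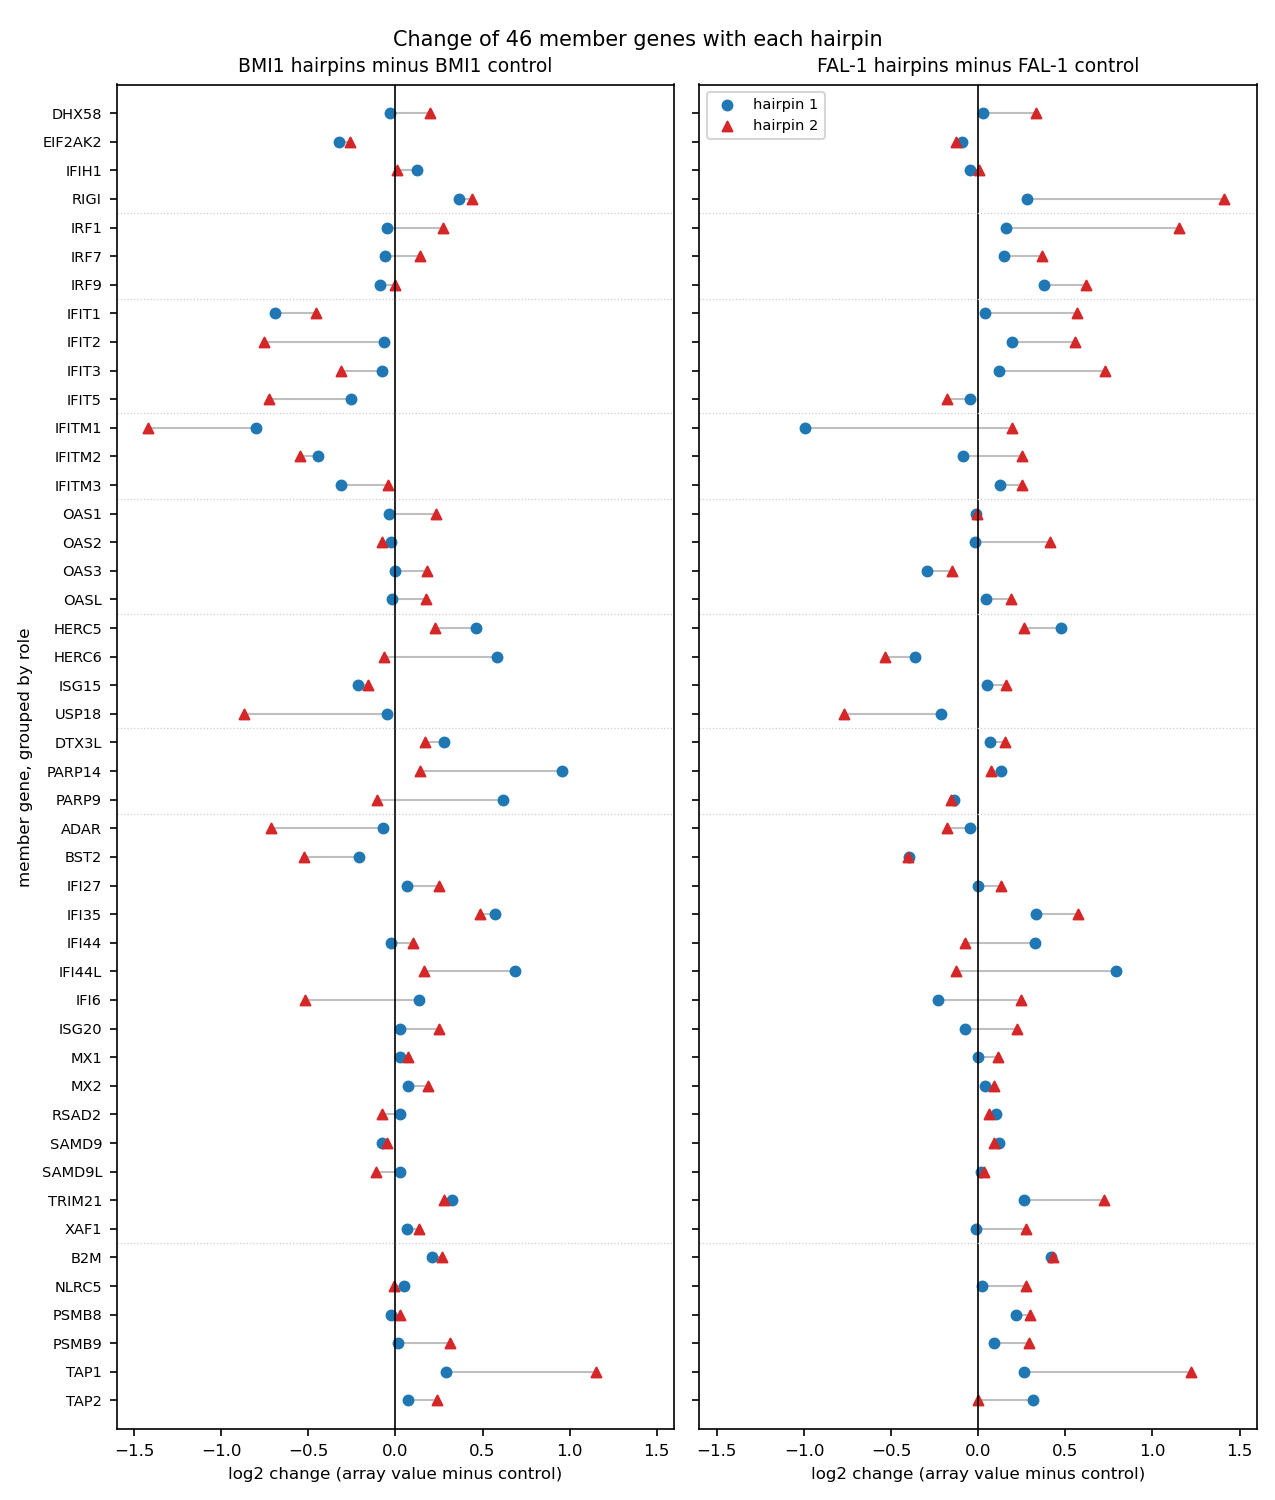
Each row is a member gene, ordered by role, and each point is the log2 change of a hairpin array against its own control (circle, hairpin 1; triangle, hairpin 2; left, BMI1; right, FAL-1). All 4 IFIT genes lie left of 0 with both BMI1 hairpins, while 5 of 6 antigen presentation genes, in the bottom block, lie right of 0 with both FAL-1 hairpins.

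No single member passed the test. In limma's fit over all genes with Benjamini-Hochberg adjustment, 0 of 46 members and 0% of 18418 genes were called with BMI1 knockdown, with FAL-1 knockdown, for their average or for the difference between them. The members' adjusted p-values were 0.9998 to 0.9999 for BMI1, 0.9991 for FAL-1, 0.907 to 0.996 for the average and 0.9999 for the difference. Without adjustment, an unadjusted p under 0.05 was reached with BMI1 knockdown by 1 member, IFI35, beside 2.59% of all genes. With FAL-1 knockdown it was reached by 3, B2M, IFI35 and IRF9, beside 3.06% of genes. For the average it was reached by 4, B2M, BST2, HERC5 and IFI35, beside 5.22%, and for the difference by 0, beside 0.804%. The spread rests on 2 pairs of hairpins (2 residual degrees of freedom). Each control, a single array, is assumed to vary like the hairpins. All directions given for single genes below are therefore descriptions of these arrays.

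A log2 change of 0.32 or more the same way with both hairpins was seen in few members. With BMI1 knockdown it was reached upward by IFI35 and RIGI (2 of 46, 4.35%, beside 2.39% of all genes) and downward by IFIT1, IFITM1 and IFITM2 (3, or 6.52%, beside 4.29%). With FAL-1 knockdown it was reached upward by B2M, IFI35 and IRF9 (3, beside 2.95% of genes) and downward by BST2 and HERC6 (2, beside 3.44%). At 1.5-fold, 1 member remained, IFITM1 with BMI1 knockdown. Just outside the limit stood TRIM21 with BMI1 knockdown, at 0.32 and 0.28.

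Among the sensors of foreign RNA, RIGI stood out. RIGI recognises short viral RNA with an uncapped end and signals toward interferon genes. It read 7.62 and 7.69 with the BMI1 hairpins, against 7.25 in the BMI1 control. FAL-1 hairpins 1 and 2 gave 7.75 and 8.88, against 7.47 in the FAL-1 control. All hairpin arrays lay above both controls, and FAL-1 hairpin 2 lay far above the rest. The mean changes were 0.40 ± 0.05 for BMI1 and 0.85 ± 0.80 for FAL-1 (SD, n = 2 hairpins each). IFIH1, which senses long double-stranded RNA, stayed between 5.21 and 5.38 on all arrays. DHX58, a relative that tunes both sensors, had changes of -0.03 and 0.20 with BMI1 and 0.03 and 0.33 with FAL-1. EIF2AK2, the kinase PKR that halts translation on double-stranded RNA, was below the control with every hairpin, by -0.32 and -0.26 for BMI1 and by -0.10 and -0.13 for FAL-1.

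The transcription factors of the pathway differed between the targets in their values. IRF9, the DNA-binding subunit of the complex with STAT2, read 8.30 and 8.54 with the FAL-1 hairpins, against 7.92 in the FAL-1 control. It read 7.90 and 7.98 with the BMI1 hairpins, against 7.98 in the BMI1 control. The change was 0.50 ± 0.17 with FAL-1 and -0.04 ± 0.06 with BMI1 knockdown (SD, n = 2 hairpins each). The FAL-1 hairpins were above all other arrays, and the BMI1 hairpins were level with the controls. The difference of 0.54 had an adjusted p of 0.9999 in limma and did not pass. IRF1, which drives antigen presentation genes after interferon gamma, read 6.93 and 7.93 with the FAL-1 hairpins, against 6.77 in the FAL-1 control, and 6.45 and 6.77 with the BMI1 hairpins, against 6.5 in the BMI1 control. Its high value came from 1 array, FAL-1 hairpin 2. IRF7, the main amplifier of interferon alpha genes, read 7.18 and 7.40 with FAL-1 hairpins, against 7.04, and 7.04 and 7.23 with BMI1 hairpins, against 7.09. Without FAL-1 hairpin 2 the IRF1 change with FAL-1 knockdown was 0.16 in place of 0.66.

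The IFIT proteins, which bind foreign RNA and block its translation, were below the control with BMI1 knockdown in all 4 members. IFIT1 read 9.28 and 9.52 with the BMI1 hairpins, against 9.98 in the BMI1 control, a change of -0.57 ± 0.17 (SD, n = 2 hairpins). FAL-1 hairpins 1 and 2 gave 9.87 and 10.40, against 9.83 in the FAL-1 control, a change of 0.30 ± 0.37. The BMI1 hairpins thus had the lowest values of the series and FAL-1 hairpin 2 the highest. IFIT2 had the same order, with 7.0 and 6.31 with BMI1 hairpins, against 7.07, and 7.38 and 7.74 with FAL-1 hairpins, against 7.19. IFIT3 changed by -0.07 and -0.31 with BMI1 and by 0.12 and 0.73 with FAL-1. IFIT5 was below the control with all hairpins, by -0.25 and -0.73 for BMI1 and by -0.05 and -0.18 for FAL-1. In each of IFIT1, IFIT2 and IFIT3 both BMI1 hairpins were below and both FAL-1 hairpins above their own controls. Against the BMI1 control, IFIT5 changed by 0.02 with FAL-1 knockdown.

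The IFITM proteins sit in membranes and hinder fusion of enveloped viruses. All 3 members lay below the control with both BMI1 hairpins. IFITM1 had the widest range of all members, 1.85 between its lowest and highest array. It read 7.98 and 7.36 with BMI1 hairpins, against 8.78 in the BMI1 control, a change of -1.11 ± 0.44 (SD, n = 2 hairpins), and 8.01 and 9.20 with FAL-1 hairpins, against 9.01 in the FAL-1 control. FAL-1 hairpin 1 was as low as BMI1 hairpin 1, while FAL-1 hairpin 2 was the highest array. The FAL-1 mean of -0.40 therefore combined opposite changes, -0.99 and 0.20. IFITM2 read 8.57 and 8.47 with BMI1 hairpins, against 9.02, a change of -0.50 ± 0.07, and 8.82 and 9.15 with FAL-1 hairpins, against 8.90. IFITM3 changed by -0.31 and -0.04 with BMI1 and by 0.13 and 0.25 with FAL-1, and its BMI1 change was 0.04 against the FAL-1 control. IFITM1, IFITM2 and IFITM3 are close in sequence, and their values are uncertain to the extent that probe sets share signal.

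The OAS enzymes make short adenylate chains that activate an RNA-cutting nuclease, and they moved little. OAS1 read 5.93 and 6.20 with BMI1 hairpins, against 5.97 in the BMI1 control, and 6.11 and 6.12 with FAL-1 hairpins, against 6.12 in the FAL-1 control. The range of OAS1 over all arrays was 0.27, and its groups overlapped. OAS2 was high only with FAL-1 hairpin 2, at 6.54, while its other arrays read 6.09 to 6.16. OAS3 changed by -0.29 and -0.15 with FAL-1 hairpins and by -0.00 and 0.18 with BMI1 hairpins. OASL, a relative that assists RIGI, changed by -0.02 and 0.18 with BMI1 and by 0.05 and 0.19 with FAL-1.

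ISG15 is a small protein that is attached to others like ubiquitin. It read 7.06 and 7.12 with BMI1 hairpins, against 7.27, and 7.27 and 7.38 with FAL-1 hairpins, against 7.22. Both BMI1 arrays were the lowest of the series, but the range was only 0.32. HERC5, the main ligase for ISG15, was above the control with every hairpin: it read 6.63 and 6.39 with BMI1 hairpins, against 6.16, and 6.68 and 6.47 with FAL-1 hairpins, against 6.20. Its mean changes were 0.35 ± 0.17 and 0.37 ± 0.15 (SD, n = 2 hairpins each). HERC6, its relative, read 6.30 and 6.13 with FAL-1 hairpins, against 6.67 in the FAL-1 control, and 7.12 and 6.47 with BMI1 hairpins, against 6.53 in the BMI1 control. Its FAL-1 hairpin arrays were the lowest and BMI1 hairpin 1 the highest. USP18, which removes ISG15 and restrains the interferon receptor, was below the control with all hairpins, by -0.05 and -0.87 for BMI1 and by -0.21 and -0.77 for FAL-1. The lower values came with hairpin 2 of each target. A second USP18 probe set is annotated to a near-identical pseudogene as well and was not used.

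PARP9 and DTX3L form a complex that modifies proteins at sites of DNA damage and in the interferon response, and PARP14 adds single ADP-ribose units. PARP14 was above the control with all hairpins, but 1 array carried the size: it read 8.79 and 7.98 with BMI1 hairpins, against 7.84, and 8.02 and 7.96 with FAL-1 hairpins, against 7.89. PARP9 likewise read 6.41 with BMI1 hairpin 1 and 5.68 with hairpin 2, against 5.79 in the BMI1 control, and 5.99 and 5.97 with FAL-1 hairpins, against 6.13. DTX3L changed by 0.28 and 0.17 with BMI1 and by 0.07 and 0.16 with FAL-1. In RefSeq the starts of PARP9 and DTX3L lie 38 bases apart and point away from each other, yet the BMI1 hairpin 2 and FAL-1 changes of the pair had opposite signs. The BMI1 direction of DTX3L depended on the control, with a mean of 0.22 against the BMI1 control and -0.26 against the FAL-1 control. PARP9 turned as well, with 0.26 and -0.08.

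Among the other induced genes, IFI35 lay above the control by 0.33 or more with every hairpin. Its product, a leucine zipper protein, partners with NMI in innate immune signalling. It read 7.71 and 7.62 with BMI1 hairpins, against 7.14 in the BMI1 control, and 7.87 and 8.11 with FAL-1 hairpins, against 7.54 in the FAL-1 control. Every hairpin array was above both controls. The changes were 0.53 ± 0.06 and 0.45 ± 0.17 (SD, n = 2 hairpins each), and their average of 0.49 did not pass (adjusted p = 0.907 in limma). The FAL-1 control read 0.40 higher than the BMI1 control. With the FAL-1 control in its place, the BMI1 change was 0.13. TRIM21, a cytosolic antibody receptor and ubiquitin ligase, changed by 0.32 and 0.28 with BMI1 and by 0.26 and 0.72 with FAL-1.

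BST2, also called tetherin, holds budding virus at the cell surface. It read 6.17 and 5.85 with BMI1 hairpins, against 6.37, and 6.22 and 6.21 with FAL-1 hairpins, against 6.61. All hairpin arrays were below both controls. ADAR, which edits adenosines in double-stranded RNA and keeps it from the sensors, was below the control with all hairpins, but by over 0.2 only with BMI1 hairpin 2, at -0.71, and the other changes were -0.07, -0.05 and -0.18. IFI44L was above the control with hairpin 1 of each target, by 0.68 and 0.79, while hairpin 2 gave 0.16 for BMI1 and -0.13 for FAL-1. IFI6, an inhibitor of cell death, changed by 0.14 and -0.52 with BMI1 and by -0.23 and 0.25 with FAL-1, so the hairpins of each target disagreed.

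Classical antiviral effectors moved little. The dynamin-like GTPase MX1 read 5.75 and 5.80 with BMI1 hairpins, against 5.73, and 5.78 and 5.89 with FAL-1 hairpins, against 5.78. Its range over all 6 arrays was 0.16. The ranges were 0.20 for MX2, 0.11 for RSAD2, the antiviral enzyme viperin, 0.17 for SAMD9 and 0.13 for SAMD9L. The exonuclease ISG20 spanned 0.31, IFI27 0.25, IFI44 0.40 and XAF1, a partner of the apoptosis inhibitor XIAP, 0.30. Of the 46 members, 29 had a mean value below that of the median gene. Dim probe sets compress differences, and a small range does not show that a transcript was unchanged.

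**Figure D2:**
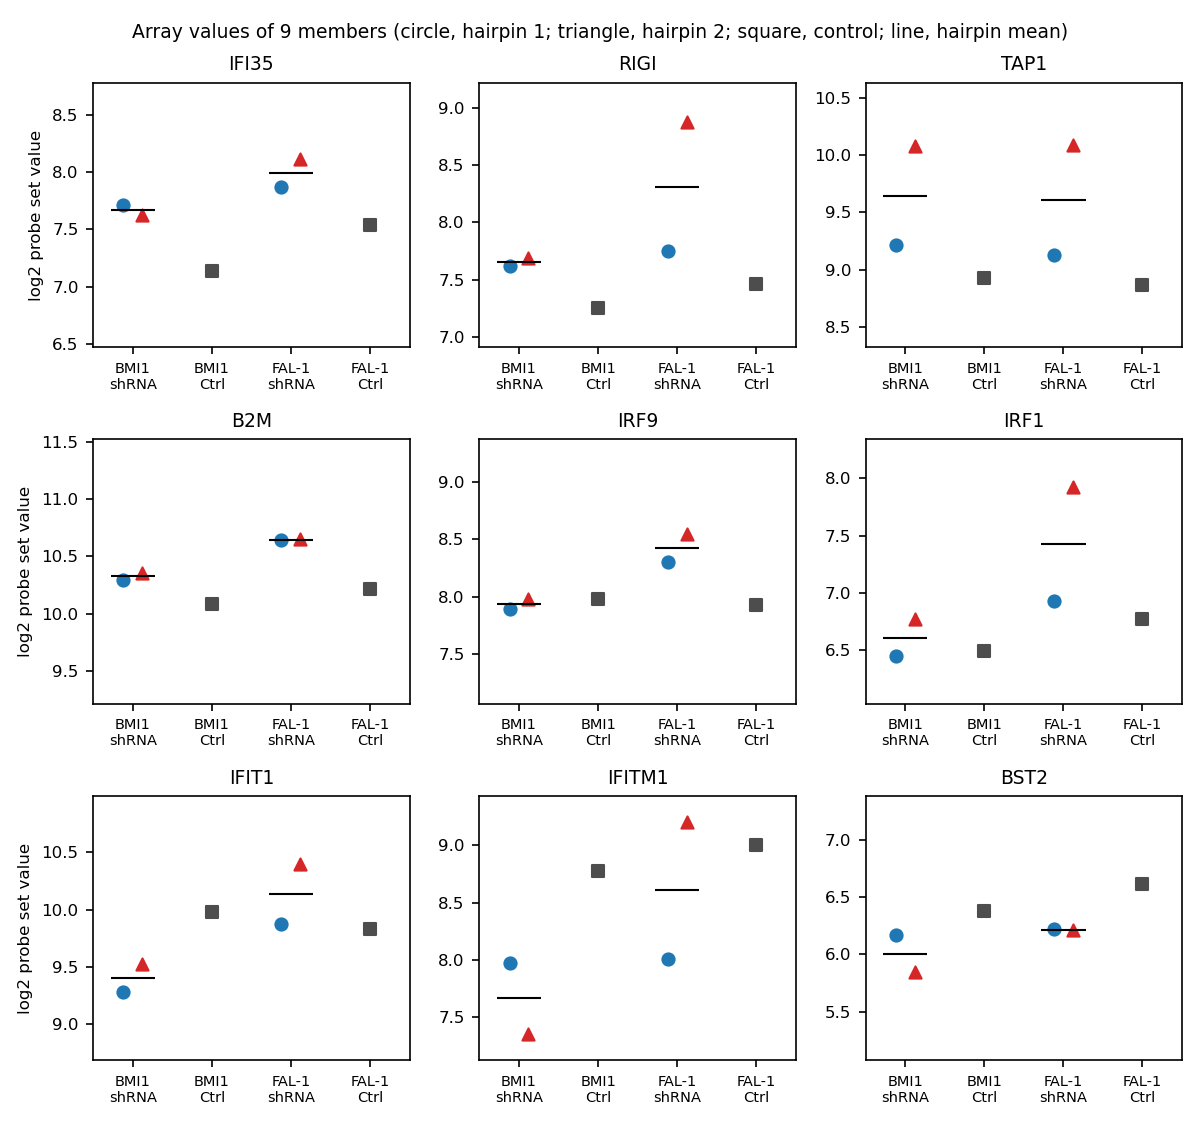
Log2 probe set values of 9 members on the 6 arrays (circle, hairpin 1; triangle, hairpin 2; square, control; line, mean of 2 hairpins), with the same span on every y axis. IFI35 and RIGI lie above both controls with all 4 hairpins and BST2 below both, while IRF1 is high only with FAL-1 hairpin 2 and IFITM1 is low with 3 of the 4 hairpins.

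The 6 antigen presentation members lay mostly above the control. Both hairpins did so in 4 of 6 with BMI1, beside 32.9% of all genes, and in 5 of 6 with FAL-1, beside 37.2%. In 0 genes were both below. Some changes were near 0, such as 0.01 for PSMB9 with BMI1 hairpin 1. TAP1, TAP2, PSMB8 and PSMB9 lie on chromosome 6, and TAP1 and PSMB9 start 488 bases apart. The 6 genes may therefore not be independent, and they were not tested as a list. Of 21 antigen presentation genes measured outside the members, both BMI1 hairpins were above the control for 7 and below for 5. Both FAL-1 hairpins were above for 12 and below for 4. B2M, the light chain of every MHC class I molecule, read 10.30 and 10.36 with BMI1 hairpins, against 10.09, and 10.64 and 10.65 with FAL-1 hairpins, against 10.22. All hairpin arrays were above both controls, and the FAL-1 hairpins were the highest. The changes were 0.24 ± 0.04 and 0.42 ± 0.01 (SD, n = 2 hairpins each). Against the other target's control they were 0.11 and 0.56.

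TAP1 and TAP2 form the transporter that carries peptides into the endoplasmic reticulum. TAP1 read 9.21 and 10.08 with BMI1 hairpins, against 8.92 in the BMI1 control, and 9.13 and 10.09 with FAL-1 hairpins, against 8.87 in the FAL-1 control. Every hairpin array was above both controls, and hairpin 2 of each target was far above hairpin 1. The changes were 0.72 ± 0.61 and 0.74 ± 0.68 (SD, n = 2 hairpins each). TAP2 read 8.60 and 8.76 with BMI1 hairpins, against 8.52, and 8.91 and 8.60 with FAL-1 hairpins, against 8.60. TAP2 thus had its highest value with FAL-1 hairpin 1, where TAP1 was lower than with FAL-1 hairpin 2. With BMI1, both genes were higher with hairpin 2 than with hairpin 1. For each of TAP1, TAP2, PSMB8 and PSMB9, 3 probe sets carry the symbol. Those of TAP1, PSMB8 and PSMB9 gave identical values on every array and so are not separate readings. Those of TAP2 gave changes of -0.12, 0.02 and -0.00 with FAL-1 hairpin 2.

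PSMB8 and PSMB9 replace catalytic subunits of the proteasome and so change which peptides are made. PSMB8 read 5.65 and 5.73 with FAL-1 hairpins, against 5.43, and 5.57 and 5.62 with BMI1 hairpins, against 5.60. PSMB9 read 6.70 and 6.90 with FAL-1 hairpins, against 6.61, and 6.80 and 7.10 with BMI1 hairpins, against 6.79. PSMB9 starts 488 bases from TAP1 on the other strand, and its changes of 0.01 and 0.31 with BMI1 and 0.09 and 0.29 with FAL-1 were again larger with hairpin 2, though far smaller than those of TAP1. NLRC5, an activator of MHC class I genes, read 6.52 and 6.78 with FAL-1 hairpins, against 6.5, and 6.48 and 6.42 with BMI1 hairpins, against 6.43. Of 14 proteasome subunits outside the members, including those that PSMB8 and PSMB9 replace, both BMI1 hairpins were above the control for 3 and below for 8, and both FAL-1 hairpins above for 6 and below for 4. Their median changes were -0.10 with BMI1 and 0.06 with FAL-1, and no test of a difference from the members was run.

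Over both knockdowns, 10 members lay above their own control with all 4 hairpins (21.7%, beside 17.0% of all genes) and 5 lay below it (10.9%, beside 14.1%). The higher members were B2M, DTX3L, HERC5, IFI35, MX2, PARP14, PSMB9, RIGI, TAP1 and TRIM21, and the lower ones ADAR, BST2, EIF2AK2, IFIT5 and USP18. Ranked by the smallest of their 4 changes, IFI35 led at 0.33, followed by RIGI at 0.28, TRIM21 and TAP1 at 0.26 each, HERC5 at 0.23 and B2M at 0.21. The smallest was PSMB9 at 0.01. The shares are close to those of all genes, and no member passed limma for the average.

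**Figure D3:**
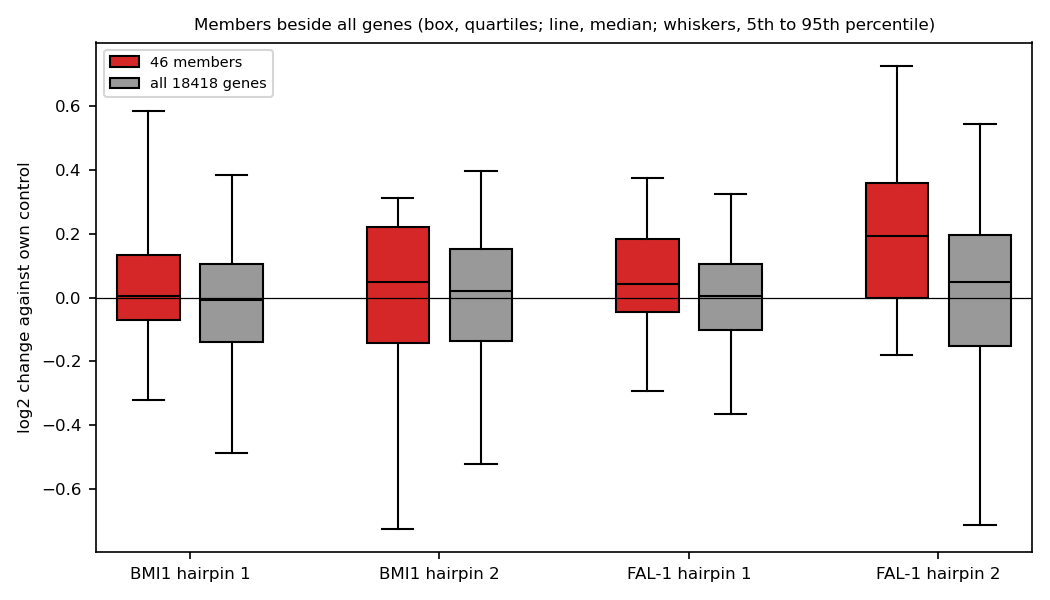
Log2 change of the 46 members (red) beside all 18418 genes (grey) for each hairpin against its own control (box, quartiles; line, median; whiskers, 5th to 95th percentile). The member box sits highest with FAL-1 hairpin 2, where its median is 0.19 against 0.05 for all genes.

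The choice of control moved several members: against the other target's control, 32 of 46 kept the sign of their change with BMI1 knockdown and 38 of 46 with FAL-1 knockdown. The FAL-1 control minus the BMI1 control was between -0.21 for IFITM3 and 0.48 for DTX3L, and its size reached 0.32 for 3 members, DTX3L, IFI35 and PARP9, where 12.2% of all genes did. Its median size was 0.08 over members and 0.11 over all genes. Against the other target's control, IRF1 had a BMI1 change of -0.16 in place of 0.11 and a FAL-1 change of 0.93 in place of 0.66. RIGI had 0.19 in place of 0.40 and 1.06 in place of 0.85. IFITM1 kept its direction with BMI1 knockdown at -1.34, and TAP1 changed by 0.78 and 0.68.

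**Figure D4:**
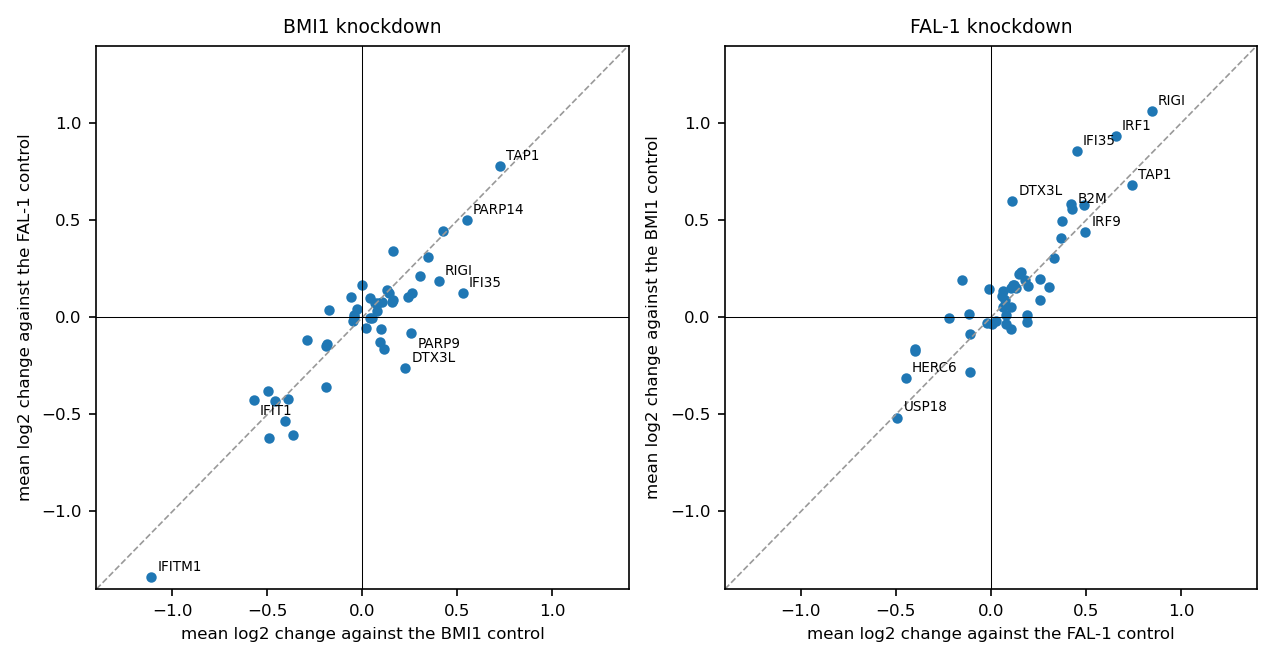
Mean log2 change of each of the 46 members over 2 hairpins against its own control (x axis) and against the other target's control (y axis), with the dashed line at equality. DTX3L and PARP9 are among the members that cross 0 with BMI1 knockdown, while TAP1 stays near the line.

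Other genes of the pathway came from lists chosen with earlier results of these data known. Of 29 listed interferons, receptors, sensors and signalling proteins, 27 were measured, and 0 passed the adjusted test with either target. Both hairpins were above the control for 18 and below for 5 with BMI1, and above for 13 and below for 6 with FAL-1. Here and for the lists that follow, the shares over all genes were 32.9% above and 30.7% below with BMI1, and 37.2% above and 27.7% below with FAL-1. The median change of this first list was 0.09 with either target, beside 0.01 with BMI1 and 0.03 with FAL-1 over all genes. By 0.32 or more with both hairpins, only TLR3 was higher with BMI1 and only TRIM25 lower with FAL-1. IFNB1, the interferon beta gene, chosen here after its values were seen, read 5.01 and 5.04 with BMI1 hairpins, against 4.94, and 4.93 and 5.06 with FAL-1 hairpins, against 4.99. TLR3, a sensor of double-stranded RNA in endosomes, read 8.38 and 7.54 with BMI1 hairpins, against 6.98. With FAL-1 hairpins it read 7.63 and 8.51, against 7.69, and its control was already 0.71 higher than that of BMI1. TRIM25, the ubiquitin ligase that activates RIGI, was below the control with every hairpin, by -0.23 and -0.35 for BMI1 and by -0.43 and -1.38 for FAL-1.

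Of 37 other induced genes, 34 were measured, with both hairpins above the control for 11 and below for 10 with BMI1, and above for 18 and below for 6 with FAL-1. TRIM5, which recognises retroviral capsids, read 8.68 and 8.72 with BMI1 hairpins, against 8.06, and 8.48 and 9.09 with FAL-1 hairpins, against 7.96. All hairpin arrays of TRIM5 lay above both controls, and its changes of 0.64 ± 0.02 and 0.83 ± 0.44 (SD, n = 2 hairpins each) stayed at 0.74 and 0.72 with the controls exchanged. SP110, a nuclear body protein, changed by 0.53 and 0.35 with BMI1 and by 0.14 and 0.69 with FAL-1. PML, which builds nuclear bodies, changed by 0.37 and 0.39 with FAL-1, and TNFSF10, the death ligand TRAIL, by 0.41 and 0.32. Lower with both FAL-1 hairpins were IFI30, a lysosomal thiol reductase of antigen processing, by -0.42 and -0.95, and PNPT1, a mitochondrial RNA-degrading enzyme, by -0.33 and -0.55.

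Of 30 other antigen presentation genes, 21 were measured. Both hairpins were above the control for 7 and below for 5 with BMI1, and above for 12 and below for 4 with FAL-1. MICA, a stress ligand seen by the NKG2D receptor of natural killer cells, read 10.53 and 11.19 with FAL-1 hairpins, against 9.80, and 9.96 and 10.47 with BMI1 hairpins, against 9.74. Each hairpin array was above both controls, with changes of 1.06 ± 0.47 for FAL-1 and 0.47 ± 0.36 for BMI1 (SD, n = 2 hairpins each). HLA-DPA1, an MHC class II chain, read 6.48 and 6.66 with FAL-1 hairpins, against 7.45, and 7.53 and 7.02 with BMI1 hairpins, against 7.34. None of these genes passed limma's test.

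Markers of other cell types were read beside these results, because leukocytes express many of the members. Of 6 leukocyte markers 5 were measured, and PTPRC, the pan-leukocyte gene, read between 5.0 and 5.10 on all arrays. The mean log2 value of the 5 was 6.32 and 6.51 with BMI1 hairpins, against 6.35, and 6.47 and 6.77 with FAL-1 hairpins, against 6.49. With BMI1, CD3E, CD14 and ITGAM were above the control with both hairpins (3 of 5) and 0 were below. With FAL-1, CD68, CD14 and ITGAM were above (3 of 5) and 2 were below. CD68 read 9.23 with FAL-1 hairpin 2, against 8.34 in the FAL-1 control. Whether that list has a part in the member values was not tested. Of 8 epithelial and ovarian markers all were measured, with both BMI1 hairpins above the control for 5 and below for 0, and both FAL-1 hairpins above for 3 and below for 1. EPCAM, an epithelial adhesion molecule, changed by 0.43 and 0.52 with BMI1 and by -0.13 and -0.01 with FAL-1. Over the arrays, KRT8 read 9.04 to 11.07 and KRT18 8.45 to 9.58, while PAX8 read 6.56 to 6.98, MUC16 5.81 to 6.18 and CDH1 5.80 to 6.09. KRT8 was highest with FAL-1 hairpin 2, 1.79 above its control. Of 4 fibroblast markers, 2 were below the control with both BMI1 hairpins and 2 with both FAL-1 hairpins, and the median changes were -0.26 and -0.14. The 3 endothelial markers had medians of 0.07 and -0.01.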

How the data were processed

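RNA of 6 A2780 arrays was read on Affymetrix arrays with a single colour, as the labels' protocols describe. The authors deposited 1 table of 33252 probe sets whose log2 values involved RMA, per the submitters' processing notes. Neither its version nor a genome build is given in the sources used here. RMA shrinks differences of dim probe sets.

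Gene symbols came from GEO's annotation of the platform: 19460 had 1 symbol, 1754 had several and 12038 were not listed. Those with several were left out, but the probe set shared by BMI1 and COMMD3-BMI1 was kept to read the target. The brightest probe set of each gene left 18418 genes. Groups followed the labels. All 6 arrays entered 1 fit of the 4 group means (lmFit and eBayes of limma 3.58.1 under R 4.3.3), two-sided, adjusted by Benjamini-Hochberg over all genes at 0.05. An exact permutation test of 1 control against 2 hairpins reaches 0.333 at best and was not run. The number of arrays limits the precision. When the BMI1 comparison was tested on simulated data (18418 genes), 0.05% of genes changed 2-fold and 33.8% of genes changed 4-fold were called. The simulated noise was normal, with each gene's spread taken from its hairpin pairs, and changes were placed in the BMI1 hairpin arrays only. These shares hold for those settings and need not equal those of the real comparison.

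Members, lists and thresholds were chosen with earlier results of these data known. Values on every array are given for members at a log2 change of 0.32 or more with both hairpins of a target, the 5 with the widest range and 13 measured members named by rule, and for other members where the text turns on them. Genes outside the members were named by the same fold rule, except IFNB1 and the markers. Promoters came from RefSeq (GRCh38.p14). Alternatives were other controls, a filter on dim genes, quantile and cyclic loess normalization, averaging a gene's probe sets, an intensity trend in the variance, the hairpin number as a block, and leaving out each hairpin array. Plots used matplotlib 3.10.9 under Python 3.11.15.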

Additional observations from a re-analysis of the deposited data

Results flagged for a closer look

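In 7 of 46 members (15.2%, beside 10.8% of all genes) both hairpins of one target lay above their control and both of the other target below. In all 7 the FAL-1 hairpins were the higher ones. The 10.8% counts either direction, and the share of all genes with this direction alone was not computed. The difference, FAL-1 change minus BMI1 change on the log2 scale, was 0.88 for IFIT1, 0.78 for IFIT2 and 0.62 for IFIT3. It was 0.54 for IRF9, 0.37 for IFITM3, 0.29 for ISG15 and 0.17 for SAMD9. None of these differences passed limma's test of the difference itself over all genes (adjusted p = 0.9999 for each). Some of the changes behind the signs were near 0, such as 0.04 for IFIT1 with FAL-1 hairpin 1 and -0.00 for IRF9 with BMI1 hairpin 2. The 3 IFIT genes lie beside each other in the genome and share sequence, so they are not independent of each other. No group held enough arrays to look for single arrays that lie apart.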

How the results depend on the processing

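Under each of 12 alternatives 0 genes were called in each comparison. With the hairpin number as a replicate block 0 were called as well, and 782 genes had an unadjusted p under 0.05 with BMI1 knockdown in place of 477, and 1064 with FAL-1 knockdown in place of 563. The hairpins share only a number, and the difference between hairpins 1 and 2 correlated at 0.275 between the targets across genes. The member median with BMI1 knockdown was 0.06 and became 0.0206 with pooled controls, 0.022 with the other target's control and -0.18 with only genes at or above the median gene, a filter that 17 members passed. Leaving out a hairpin gave 0.00607 without hairpin 2 and 0.0492 without hairpin 1. For FAL-1 the member median was 0.04 without hairpin 2 and 0.19 without hairpin 1. The filter left 7 members above the control with both BMI1 hairpins and 8 with both FAL-1 hairpins, because it tests fewer genes. Among the members at a log2 change of 0.32 with both FAL-1 hairpins, the 2 lower ones became 0 with pooled controls, the other control or the filter, and the 3 higher ones became 6 with the other control. The 2 members higher by 0.32 with both BMI1 hairpins became 0 with pooled controls and 1 with the other control. For the 20 members and 10 other genes named by rule, 541 of 570 recomputed changes kept their direction. The other 29 changed sign from values that had not reached 0.32 with both hairpins. That count did not check the 0.32 limit: against the other control, the IFI35 change with BMI1 knockdown went from 0.53 to 0.13. The intensity trend, the hairpin block and the filter cannot alter a log2 change, nor can averaging for a gene with 1 probe set. Part of the agreement was therefore fixed in advance. Values near the array background limit what the dimmer members can show.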
